A study of Mus musculus with 6 samples.

Results

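The genes described here are 30 markers of oligodendrocytes and their progenitors, among 23955 genes counted in ribosome-bound mRNA from tagged astrocytes of the mouse brain. They were chosen by name, with earlier results of these data known, and all 30 were found in the files. The set comprised 24 genes of mature, myelin-forming cells and 6 genes of progenitors and newly committed cells (Pdgfra, Cspg4, Gpr17, Lhfpl3, Enpp6 and Bcas1). All animals were C57BL/6 mice of both sexes, 3 months old, of the genotype Slc1a3 +/- GFP+ Rpl22HA fl/fl. They combined the alleles Slc1a3tm1(cre/ERT2)Mgoe and Rpl22 tm1.1Psam with the reporter transgene Tg(CAG-cat,-EGFP)1Rbns. Both groups had received tamoxifen by gavage at 9 weeks, 3 times at intervals of 48 hours, which activates a drug-inducible Cre placed in the gene of the astrocyte glutamate transporter, Slc1a3. Cre switches the ribosomal protein Rpl22 to a form carrying a haemagglutinin tag, by which ribosomes and their mRNA are purified. The groups were 3 libraries from the diencephalon, dissected without the surroundings of the third ventricle, and 3 from the grey matter of the cortex, taken without white matter or meninges, each library pooling 3 mice. Tagging thus follows the activity of the Slc1a3 locus, the labels name the purified cells astrocytes, and libraries of unpurified tissue were not analysed here.

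Oligodendrocytes wrap axons of the central nervous system in myelin, a stack of lipid-rich membrane held together by a small set of abundant proteins. They arise throughout life from progenitors that carry the receptor for platelet-derived growth factor and the proteoglycan NG2, pass through a short committed stage, and then switch on the myelin genes. In the adult brain myelinating cells are dense in fibre tracts and in deep nuclei crossed by fibres, and sparser in the upper layers of cortical grey matter.

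Myelin genes were mostly higher in the diencephalic libraries, and the progenitor genes were divided. Of the 24 myelin genes 22 had enough counts to be tested, and 16 of these were higher in diencephalon, 1 was lower (Car2) and 5 did not pass at an adjusted p of 0.05 (quasi-likelihood test of edgeR, p-values adjusted by Benjamini-Hochberg over 10568 genes). Of all genes tested 29.6% passed, 14.9% higher and 14.8% lower, and their median log2 difference was 0.01 against 1.07 for the tested myelin genes. The difference was above 0 for 18 of the 22, as for 50.7% of all genes. All 6 progenitor genes were tested: Pdgfra, Cspg4 and Gpr17 were lower, Lhfpl3 and Bcas1 were higher, and Enpp6 did not pass, with a median of -0.37. A change beyond 1.5-fold was shown for 11 myelin genes upward, where 4.58% of all genes reached it, and downward for Car2 and Gpr17, where 5.41% did. The 3 diencephalic libraries lay above all 3 cortical ones for 15 of the 22 tested myelin genes and 2 of 6 progenitor genes, against 21.8% of all genes, and below them for 1 and 3, against 20.8%, so that 21 of the 28 tested members had separate ranges where 42.6% of all genes did.

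Depth and composition bear on all of these values. Libraries held 1733145 to 2334237 expected counts, and 3 counts corresponded to 1.31 to 1.86 CPM, the unit of all levels below unless stated, in which each count is scaled to a common library total with TMM-adjusted sizes. Replicate 3 of cortical grey matter was the library least like the others of its region (chi-square of counts over its degrees of freedom 6.81 and 5.91, where the remaining cortical pair had 2.59). Without it the counts of higher and lower genes were the same for both groups of markers. Diencephalon replicate 2 and cortical grey matter replicate 3 had 8.44 and 0 CPM of 4 Y-linked genes, and the other libraries had 145 to 166. The Slc1a3 gene, whose locus drives Cre, had 747 ± 32.1 CPM (SD, n = 3) in the diencephalic and 1047 ± 270 CPM in the cortical libraries, and all 20 astrocyte markers were detected in both regions. Beyond their numbers, the labels do not say how the pools of a region differ, so p-values measure the spread between these libraries. In RNA pooled over many cells, fewer cells of a type cannot be told apart from less RNA per cell. Neuron markers were also present, at summed levels of 2955 to 3386 CPM in the diencephalic and 7119 to 8935 CPM in the cortical libraries. What part of the oligodendrocyte signal came from tagged cells, and what part from mRNA carried over from untagged cells, was not tested.

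**Figure D1:**
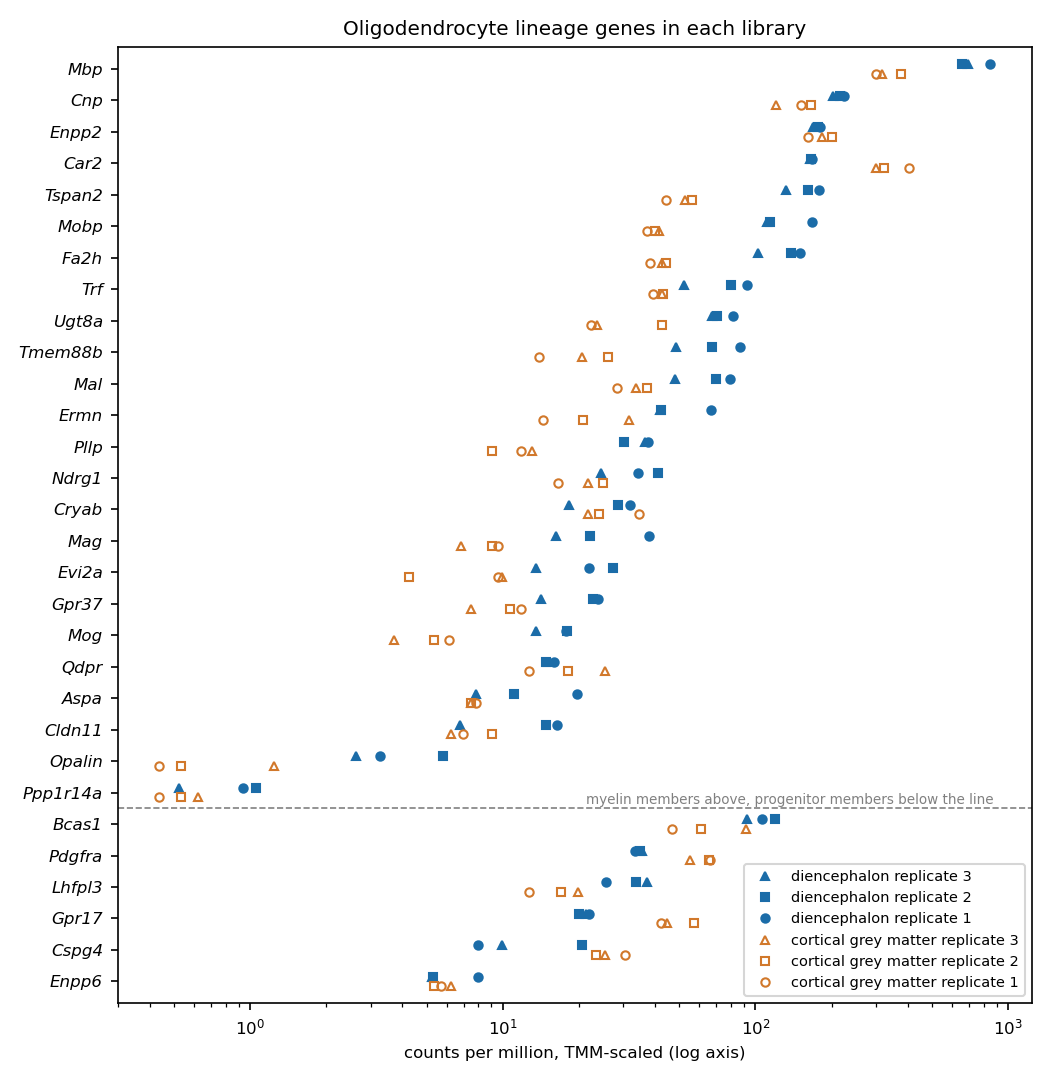
CPM of each of the 30 genes in each of the 6 libraries, on a log axis, with filled blue symbols for diencephalon and open orange symbols for cortical grey matter. The blue symbols lie to the right of the orange ones for most myelin genes, to the left for Car2, Pdgfra, Cspg4 and Gpr17, and mixed with them for genes such as Enpp2, Cryab and Qdpr.

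The myelin genes were divided by role after their values were seen. Contrasts between these role groups are therefore not independent of the values. Of 9 genes for structural proteins of myelin 8 were higher in diencephalon and Cldn11 did not pass, with a median log2 difference of 1.57. Higher genes made up 14.9% of all genes tested. Mbp encodes myelin basic protein, which seals the cytoplasmic faces of the myelin membrane. It was at 851, 655 and 691 CPM in diencephalon replicates 1 to 3, and at 301, 378 and 317 CPM in cortical grey matter replicates 1 to 3. The lowest diencephalic library was thus above the highest cortical one, and the log2 difference was 1.14 ± 0.14 (SE, edgeR adjusted p = 1.33e-06). Mobp, another basic protein of compact myelin, was at 167, 114 and 111 CPM against 37.1, 39.9 and 41.6 CPM. Its cortical libraries were close together and its diencephalic ones were 3.32-fold higher (log2 difference 1.73 ± 0.18, adjusted p = 1.29e-07). Tspan2, a tetraspanin of the oligodendrocyte membrane, was at 178, 161 and 132 CPM against 44.1, 55.9 and 52.8 CPM, with no overlap (1.63 ± 0.16, adjusted p = 5.29e-08).

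Mag and Mog encode adhesion proteins of the innermost and the outermost myelin layer. Mag was at 37.9, 22.1 and 16.2 CPM against 9.60, 9.05 and 6.83 CPM, so that diencephalon replicate 1 was well above the other libraries of its region. Mog was at 17.8, 17.9 and 13.6 CPM against 6.11, 5.32 and 3.73 CPM. Both were higher in every diencephalic library, by log2 differences of 1.57 ± 0.32 and 1.66 ± 0.34 (adjusted p = 0.000805 and 0.000755). The proteolipids of lipid-raft membrane, Pllp (plasmolipin) and Mal, differed in size of change: Pllp was 3.07-fold higher (37.4, 30.1 and 36.6 against 11.8, 9.05 and 13.0 CPM) and Mal 2.00-fold (79.1, 69.6 and 48.1 against 28.4, 37.3 and 33.5 CPM). For Mal a change beyond 1.5-fold did not pass (adjusted p = 0.0672). Cnp, the enzyme that keeps cytoplasmic channels in myelin open, had the smallest change among the 8, from 146 ± 23.3 CPM in cortex to 215 ± 10.7 CPM (log2 difference 0.55 ± 0.13, adjusted p = 0.00338). Cldn11, the tight junction protein between myelin turns, was at 16.4, 14.8 and 6.79 CPM against 6.98, 9.05 and 6.21 CPM, and diencephalon replicate 3 lay among the cortical values (0.77 ± 0.37, adjusted p = 0.127). Without that library Cldn11 passed (adjusted p = 0.0406, range over alternatives 0.0406 to 0.395).

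Upstream sequence was read for all members with an entry, whether or not they passed the test. RefSeq promoter windows of GRCm38.p6, from 250 bases before to 50 bases after a start site, were found for 20 of the 30 genes (23 windows, 19 of them for 16 myelin genes). They were searched on both strands for ACAAAG and ACAATG, short forms of the motif bound by SOX factors such as SOX10. The search also covered the E-boxes CAGCTG and CAGATG, read by basic helix-loop-helix factors such as OLIG2, and CTGGCAC and CTGGTAC, forms of the motif of the myelin regulator MYRF. A SOX form occurred in 8 of 19 myelin windows (42.1%), against 28.6% of all 32851 windows. An E-box form occurred in 7 of 19 (36.8%, against 30.6%) and a MYRF form in 5 of 19 (26.3%, against 7.10%). The MYRF matches came from Cnp, Mag, Mog and Opalin, and 2 overlapping windows of Mag count among both the SOX and the MYRF matches. The median share of G and C bases was 59.7% in the myelin windows and 52.7% in all windows. The motif shares were not adjusted for this difference in base composition, and no enrichment is read from them. The 250 bases before the start site are printed for 3 myelin genes: Mobp, which had the most matches, Cnp, which held a SOX and a MYRF form, and Tmem88b, which had the largest log2 difference of the tested members. Each is written 5′ to 3′ on the strand of the gene, with every match on either strand in capitals.
Mobp, chr9:120149492-120149741, plus strand: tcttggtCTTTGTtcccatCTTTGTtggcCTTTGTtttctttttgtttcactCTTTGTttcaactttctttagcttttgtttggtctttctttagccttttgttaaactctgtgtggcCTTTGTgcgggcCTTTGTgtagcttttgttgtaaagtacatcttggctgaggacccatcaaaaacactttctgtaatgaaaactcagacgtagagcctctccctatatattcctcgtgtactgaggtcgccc
Cnp, chr11:100574689-100574938, plus strand: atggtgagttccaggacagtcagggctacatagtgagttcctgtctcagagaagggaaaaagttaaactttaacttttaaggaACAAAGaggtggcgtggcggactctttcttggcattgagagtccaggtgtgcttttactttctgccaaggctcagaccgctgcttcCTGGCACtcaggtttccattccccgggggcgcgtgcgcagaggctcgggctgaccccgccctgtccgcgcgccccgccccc
Tmem88b, chr4:155785875-155786124, minus strand: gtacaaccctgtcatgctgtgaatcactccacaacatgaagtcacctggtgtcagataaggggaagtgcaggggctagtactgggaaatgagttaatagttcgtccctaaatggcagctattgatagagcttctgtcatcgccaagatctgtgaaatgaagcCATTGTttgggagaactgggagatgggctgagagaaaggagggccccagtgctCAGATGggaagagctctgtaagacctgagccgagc
The Mobp window held 6 copies of CTTTGT, the reverse complement of ACAAAG, none overlapping another. In Cnp the matches are ACAAAG and CTGGCAC as written, and in Tmem88b they are CATTGT, the reverse complement of ACAATG, and CAGATG. These are matches of letters, and binding was not measured here.

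Enzymes of myelin lipid followed the structural genes. Fa2h, which hydroxylates the fatty acids of myelin galactolipids, was at 150.2, 138 and 102 CPM against 38.4, 44.2 and 42.9 CPM. Ugt8a, which attaches galactose to ceramide in the next step of that pathway, was at 81.4, 70.1 and 67.4 CPM against 22.3, 42.6 and 23.6 CPM. No library overlapped for either gene, and the log2 differences were 1.64 ± 0.17 and 1.31 ± 0.22 (adjusted p = 1.45e-07 and 7.37e-05). Aspa, the oligodendrocyte enzyme that splits N-acetylaspartate into acetate and aspartate, was at 19.6, 11.1 and 7.84 CPM against 7.85, 7.45 and 7.45 CPM. Its diencephalon replicate 3 fell among the cortical values, and it did not pass (0.77 ± 0.37, adjusted p = 0.125).

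Of 6 further membrane and cytoskeletal genes, the 4 with enough counts were all higher in diencephalon (all genes: 14.9%). Tmem88b, a transmembrane protein gene, had the largest log2 difference of the 28 tested members, 1.76 ± 0.24, from 14.0, 26.1 and 20.5 CPM in cortex to 86.6, 67.5 and 48.6 CPM. Ermn encodes ermin, an actin-binding protein of mature oligodendrocytes, and was 2.32-fold higher, with 41.8 CPM in the lowest diencephalic and 31.7 CPM in the highest cortical library. Evi2a was 2.63-fold higher (22.0, 27.4 and 13.6 against 9.60, 4.26 and 9.94 CPM). It lies inside an intron of Nf1, and as the strand setting of the counting is not given in the sources used here, reads of this pair of genes cannot be fully told apart there. Gpr37, a receptor gene of maturing oligodendrocytes, was 2.00-fold higher (adjusted p = 0.0151), a call lost without diencephalon replicate 1 or 2 (adjusted p = 0.0755 and 0.0655, range over alternatives 0.00891 to 0.0755). Opalin, a sialylated membrane protein, had too few counts for the test, at 3.27, 5.80 and 2.61 CPM against 0.436, 0.532 and 1.24 CPM. With no count filter its log2 difference was 2.37, above that of Tmem88b, and it passed as higher (edgeR adjusted p = 0.0294). Ppp1r14a, a phosphatase inhibitor gene, had 5 counts in the diencephalic and 3 in the cortical libraries, a diencephalic-to-cortical ratio of 1.62, with an exact 95% interval from 0.315 to 10.4 that covers counting error only.

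**Figure D2:**
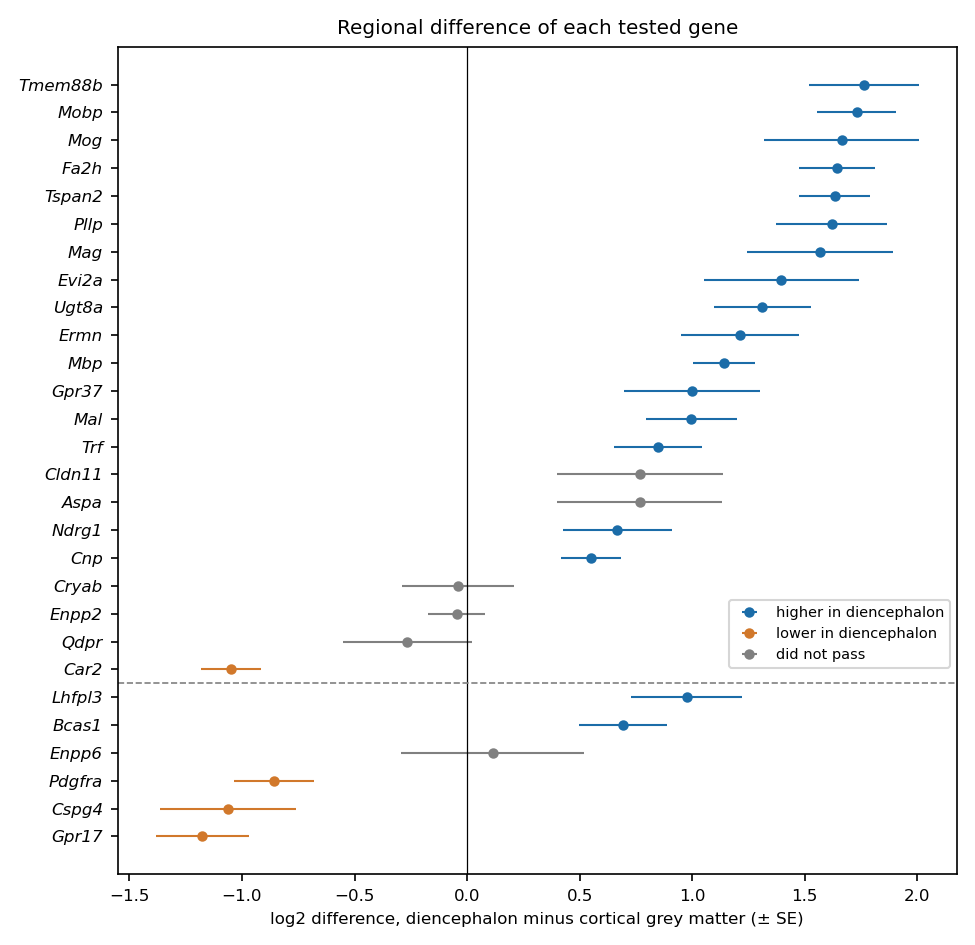
Log2 difference between diencephalon and cortical grey matter with its standard error for the 28 tested genes, 22 myelin genes above the dashed line and 6 progenitor genes below it, coloured by whether each passed the test. Tmem88b lies highest at 1.76 and Gpr17 lowest at -1.18.

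A last group held markers that other cells of the brain are also known to express. It too was drawn after the values were seen, so its less even behaviour is no separate result. Of 6 such genes Trf and Ndrg1 were higher, Car2 was lower, and Cryab, Qdpr and Enpp2 did not pass (all genes: 14.9% higher and 14.8% lower). Their median log2 difference was -0.04. Car2 encodes carbonic anhydrase 2, found in oligodendrocytes, some astrocytes and the choroid plexus, and was at 168, 166 and 164 CPM against 404, 324 and 300.0 CPM. Its diencephalic libraries hardly varied and lay below every cortical one (log2 difference -1.05 ± 0.13, adjusted p = 2.44e-06). Astrocyte markers summed to 20378 to 23741 CPM in the diencephalic and 29043 to 36546 CPM in the cortical libraries. Of those 20 genes 8 were lower and 2 were higher (all genes: 14.8% and 14.9%), and none was without counts. Their part in the value of Car2 was not tested.

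Trf encodes the iron carrier transferrin, made by oligodendrocytes and the choroid plexus. It was at 92.2, 80.1 and 52.3 CPM against 39.3, 43.1 and 42.9 CPM, with no overlap (0.85 ± 0.20, adjusted p = 0.00213). Enpp2 encodes autotaxin, which makes lysophosphatidic acid and is likewise known from both cell types. Its libraries overlapped between regions, at 180.1, 177 and 169 CPM against 161, 201 and 183 CPM (-0.05 ± 0.13, adjusted p = 0.817). The choroid plexus and ependymal list, 10 genes led by Ttr, summed to 142 to 173 CPM in the diencephalic and 6.21 to 37.8 CPM in the cortical libraries. Of its 5 tested genes 4 were higher (all genes: 14.9%), and Kcne2 and Tmem212 had no cortical count. The part of those cells in Trf and Enpp2 was not tested. Ndrg1, a stress-responsive gene strong in myelinating cells, was 1.59-fold higher with overlapping libraries (24.6 CPM in diencephalon replicate 3, 25.0 in cortical grey matter replicate 2, adjusted p = 0.0419). That call was lost with DESeq2 (0.0939), with the trend on gene length removed (0.0596), and on leaving out replicate 1 or 2 of diencephalon or replicate 1 of cortical grey matter (0.101, 0.220 and 0.191, range over alternatives 0.0234 to 0.220). Cryab, a small heat shock protein gene, and Qdpr, which recycles tetrahydrobiopterin, had log2 differences of -0.04 ± 0.25 and -0.27 ± 0.29 (adjusted p = 0.920 and 0.521). For Cryab and Enpp2 the sign turned on the TPM scale, to 0.25 and 0.15.

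Of the 6 progenitor genes, Pdgfra, Gpr17 and Cspg4 were lower in diencephalon. Pdgfra, the receptor for the growth factor that keeps progenitors dividing, was at 33.2, 34.8 and 35.5 CPM in diencephalon and 66.3, 65.5 and 55.3 CPM in cortical grey matter. Libraries of a region agreed closely and the regions did not overlap (log2 difference -0.86 ± 0.18, adjusted p = 0.000803). With no filter on low TPM it did not pass (limma adjusted p = 0.0571, range over alternatives 0.000120 to 0.0571). Gpr17, a receptor that marks cells leaving the progenitor stage, was at 22.0, 20.04 and 21.4 CPM against 42.3, 57.0 and 44.7 CPM. It had the largest decrease of the 28 tested members, 2.26-fold (-1.18 ± 0.21, adjusted p = 0.000144). Cspg4, the NG2 proteoglycan, was at 7.95, 20.6 and 9.93 CPM against 30.5, 23.4 and 25.5 CPM, with diencephalon replicate 2 closest to the cortical range (-1.06 ± 0.30, adjusted p = 0.0102). With TPM in place of counts it did not pass (0.165, 0.164 and 0.187 by limma), nor did it without replicates 1 or 3 of diencephalon or replicate 1 of cortex (0.0671, 0.0664 and 0.0536 with edgeR; its alternatives spanned 0.000820 to 0.187).

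Pdgfra is also known from fibroblasts and Cspg4 from pericytes. Meningeal and fibroblast markers summed to 835 to 1267 CPM in the diencephalic and 4538 to 8287 CPM in the cortical libraries. Ptgds made up 64.7% of this sum, which was 5.89-fold lower in diencephalon with it and 2.93-fold lower without it. Of the 12 genes of this list 11 were lower in diencephalon (all genes: 14.8%), and none was without counts in either region. The vascular list, with pericyte genes, summed to 98.1 to 135 CPM against 161 to 276 CPM. Of its 14 genes 5 could be tested and 1 was lower (all genes: 14.8%), Vtn, without which the list was 1.15-fold lower. The pericyte gene Pdgfrb was at 32.2 CPM against 43.0 and did not pass. What part these cells had in Pdgfra and Cspg4 was not tested.

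Of the other 3 progenitor genes, Bcas1 and Lhfpl3 were higher in diencephalon and Enpp6 did not pass. Bcas1, which marks newly formed oligodendrocytes and the earliest myelin, was at 106, 119 and 92.5 CPM against 46.7, 60.7 and 91.9 CPM. Cortical grey matter replicate 3 nearly reached the lowest diencephalic library, and the log2 difference was 0.69 ± 0.20 (adjusted p = 0.0115). That call depended on single libraries, with an adjusted p of 0.0621 on leaving out diencephalon replicate 2, and of 0.0763 and 0.0538 on leaving out the cortical replicates 1 and 2 (range over alternatives 1.71e-05 to 0.0763). Lhfpl3, a membrane protein gene of progenitors, was at 25.7, 33.7 and 37.1 CPM against 12.7, 17.0 and 19.9 CPM and was 1.97-fold higher (0.98 ± 0.25, adjusted p = 0.00433). Enpp6, a choline phosphodiesterase of cells that are just starting to form myelin, was low in both regions, at 7.95, 5.27 and 5.23 CPM against 5.67, 5.32 and 6.21 CPM (0.11 ± 0.41, adjusted p = 0.864). Gpr17 and Bcas1, both placed in the progenitor group, thus changed in opposite directions. The 250 bases before the start site of Pdgfra, which was lower, and Lhfpl3, which was higher, are printed as for the myelin genes above.
Pdgfra, chr5:75152001-75152250, plus strand: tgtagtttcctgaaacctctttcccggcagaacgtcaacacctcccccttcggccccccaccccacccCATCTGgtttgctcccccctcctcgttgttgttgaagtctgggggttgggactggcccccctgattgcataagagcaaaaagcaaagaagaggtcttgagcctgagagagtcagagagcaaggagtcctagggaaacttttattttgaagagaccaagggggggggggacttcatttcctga
Lhfpl3, chr5:22745804-22746053, plus strand: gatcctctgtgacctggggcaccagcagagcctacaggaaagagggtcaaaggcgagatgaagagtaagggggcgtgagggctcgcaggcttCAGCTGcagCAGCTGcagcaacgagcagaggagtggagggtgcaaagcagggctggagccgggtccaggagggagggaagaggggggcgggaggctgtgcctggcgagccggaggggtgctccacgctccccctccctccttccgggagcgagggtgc
The Pdgfra window held 1 match, CATCTG, the reverse complement of CAGATG, and the Lhfpl3 window held 2 copies of CAGCTG. Of 4 progenitor windows found, 1 held a SOX form, 2 an E-box form and 0 a MYRF form (all windows: 28.6%, 30.6% and 7.10%). With so few windows no contrast with the myelin genes is read from these counts.

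The 24 myelin genes together were at 2586, 2194 and 2001 CPM in diencephalon replicates 1 to 3 and at 1384, 1501 and 1335 CPM in cortical grey matter replicates 1 to 3. All 3 diencephalic sums were above the cortical ones, by 1.61-fold in the mean and by 1.42-fold without Mbp, which made up 29.0% of the sum. The 6 progenitor genes together were at 203, 234 and 202 CPM against 204, 229 and 243 CPM, so that the regions overlapped. Their mean fold of 0.943 depends on Bcas1, which made up 39.3% of the sum: without it the rest were 1.49-fold lower in diencephalon. It also depends on the unit: on summed TPM, which divides by gene length, the progenitor genes were 1.32-fold higher in diencephalon. The myelin genes were 1.74-fold higher on that scale. The ratio of the myelin to the progenitor sum was 12.8, 9.39 and 9.92 in the diencephalic and 6.78, 6.56 and 5.48 in the cortical libraries. Set against summed astrocyte markers, the myelin sum was 9.82% to 10.9% in diencephalon and 3.79% to 4.60% in cortex. The astrocyte sum was itself 1.55-fold lower in diencephalon, or 1.37-fold without Slc1a2, which made up 45.7% of it. These percentages therefore differ between regions by more than the myelin sum alone. These sums were not tested, since their members were chosen with results known.

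**Figure D3:**
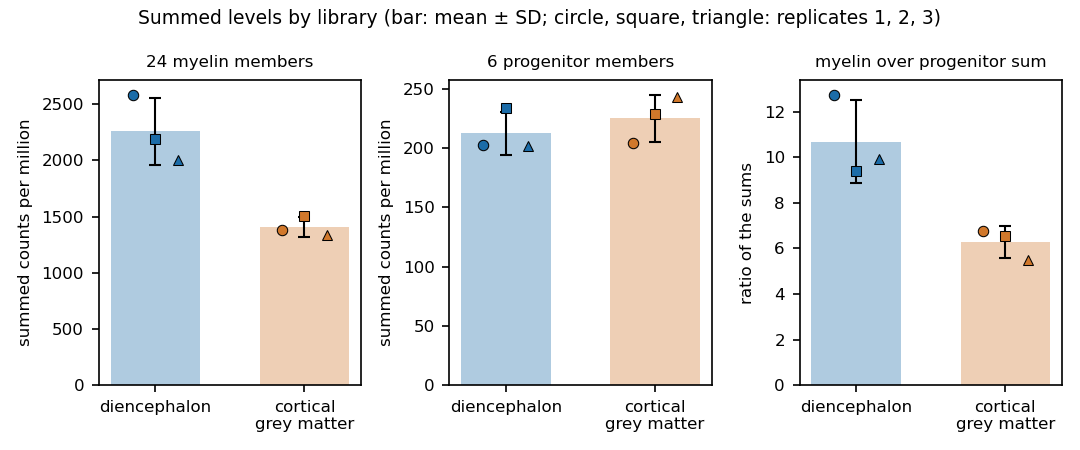
Summed CPM of the 24 myelin genes (left) and the 6 progenitor genes (centre), and the ratio of the sums (right), as bars of the regional mean with SD and a symbol for each of 3 libraries. The diencephalic myelin sums, 2001 to 2586 CPM, lie above the cortical ones, 1335 to 1501 CPM, while the progenitor sums overlap.

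Libraries of the same region also differed from each other across the myelin genes. Diencephalon replicate 1 was the highest of its region for 19 of the 22 tested myelin genes, and replicate 3 the lowest for 19. In cortical grey matter, replicate 2 was the highest for 11 and replicate 1 the lowest for 12. Progenitor genes were spread more evenly: each diencephalic library was the highest for 2 of 6. Leaving out diencephalon replicate 1 or 2 left 14 myelin genes higher, and leaving out replicate 3 left 17.

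Per length, on the deposited TPM scale, Mbp stood above every other member in diencephalon, at 1387 ± 191 TPM (SD, n = 3). Car2 and Cnp followed at 376 ± 2.10 and 358 ± 11.3 TPM, close to each other but with no overlap between their libraries. In cortical grey matter the order of the first members changed: Car2 was at 674 ± 114 TPM and Mbp at 525 ± 64.5 TPM. Fa2h and Mobp ranked 4 and 5 among the 30 genes in diencephalon (205 ± 37.6 and 197 ± 44.8 TPM), and 8 and 9 in cortex (57.2 ± 3.45 and 53.5 ± 4.53 TPM). Pdgfra and Gpr17 went the other way, from ranks 13 and 14 in cortex (30.9 ± 2.91 and 30.2 ± 4.33 TPM) to 26 and 27 in diencephalon (19.7 ± 0.945 and 15.4 ± 0.606 TPM). On the log2(TPM + 1) scale, with 14296 genes and all 24 myelin genes in the fit, the median log2 difference of all genes was 0.22. The medians of 1.26 for myelin genes and -0.19 for progenitor genes on that scale are 1.04 and -0.41 relative to all genes. The fit on counts held 10568 genes and 22 myelin genes, so scale and gene set differ together.

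The length that RSEM gives a gene is an average over its transcripts weighted by their abundance, so it can move between libraries where a gene has several. Mbp, with 8 transcripts in the files, had a mean length of 2086, 2128 and 2102 bases in the diencephalic and 2217, 2141 and 2191 bases in the cortical libraries, with no overlap. Enpp2 and Lhfpl3 lengths also did not overlap, but differed by less than 1% between regional means (3477 against 3467 and 2966 against 2944 bases). With 3 libraries against 3 an exact permutation test cannot go below p = 0.10, and no test of these lengths was made. The share of all genes with separate lengths was not computed, and a member with a single transcript has a constant length. No regional difference in Mbp transcripts is therefore read from these lengths.

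Other genes of the lineage were grouped in lists by their known roles, not by how they changed here, though earlier results of these data were known. Of 13 transcription factor genes 10 were tested, 4 were higher in diencephalon, none was lower, and the median log2 difference was 0.52. Among all genes tested 14.9% were higher and 14.8% lower. Myrf, the factor that switches on myelin genes in differentiating cells, was at 126, 134 and 107 CPM against 27.5, 47.4 and 33.5 CPM (1.77 ± 0.18, adjusted p = 1.70e-07). Myt1 was 2.45-fold higher, and Tcf7l2 2.71-fold, a gene that neurons and astrocytes of the diencephalon are known to express as well. St18 was 2.03-fold higher (adjusted p = 0.0263). The call was lost with DESeq2 (0.0621), with TPM in place of counts (0.0640, 0.0670 and 0.0742 by limma), or on leaving out replicate 1 of diencephalon or either replicate 1 or 3 of cortex (0.118, 0.0511 and 0.0832, range over alternatives 0.0146 to 0.118). The factors shared by progenitors and mature cells did not pass: Olig1 had a log2 difference of 0.27 ± 0.15, Olig2 -0.12 ± 0.23 and Sox10 -0.47 ± 0.26 (adjusted p = 0.181, 0.751 and 0.197). With TPM in place of counts Olig1 passed as higher (0.0220, 0.0227 and 0.0270 by limma, with 0.0220 to 0.331 over its alternatives).

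Among 32 other genes of mature oligodendrocytes 25 were tested, of which 14 were higher and 2 lower (all genes: 14.9% and 14.8%). Their median log2 difference was 0.85. Plekhh1 was 3.98-fold, Tmem63a 2.72-fold and Cntn2, an adhesion molecule of the region beside the node, 2.67-fold higher. The 2 lower genes were the actin-severing protein gene Gsn, 5.41-fold, and the apolipoprotein gene Apod, 3.59-fold, the latter named after its value was seen. Both are also known from fibroblasts, whose markers summed to a level 5.89-fold lower in diencephalon (2.93-fold when Ptgds was left out). Their part in Gsn and Apod was not tested.

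Of 22 other progenitor and committed genes 18 were tested, of which 3 were higher and 5 lower (all genes: 14.9% and 14.8%). Their median log2 difference was -0.11. The ligand gene Bmp4 was at 6.55, 3.16 and 5.23 CPM against 22.7, 27.7 and 19.9 CPM, which is 4.62-fold lower. Scrg1 was 3.73-fold and Luzp2 1.75-fold lower, while the semaphorin gene Sema5a was 1.96-fold and the transcription factor gene Sox6 1.44-fold higher. Astrocytes are known to express several genes of this list, Luzp2 among them, so its members are not all specific to progenitors.

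**Figure D4:**
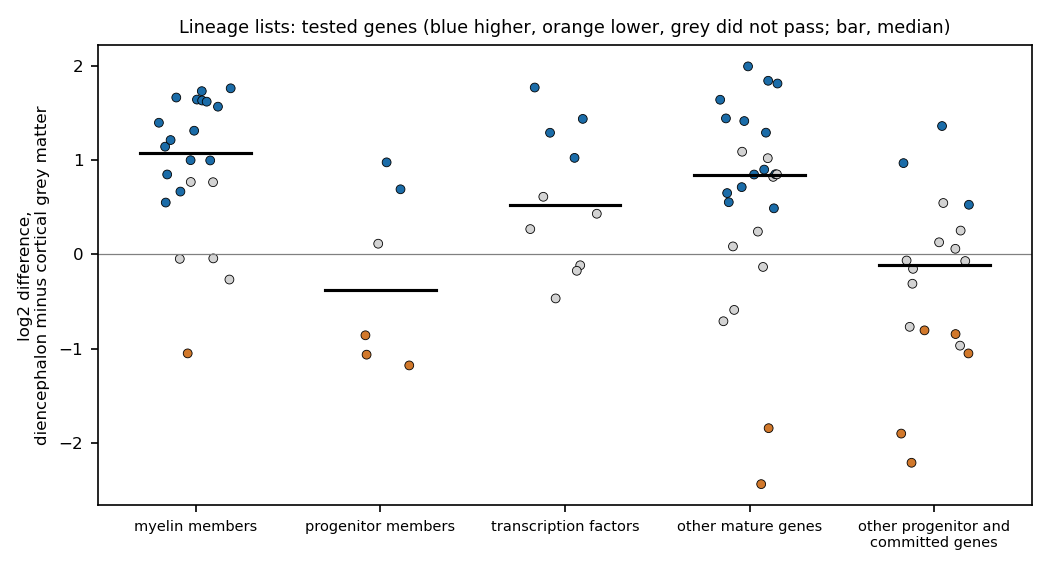
Log2 difference of each tested gene in 5 lists of the oligodendrocyte lineage, with the median of each list as a bar and points spread sideways only to be seen (blue, higher; orange, lower; grey, did not pass). The medians lie at 1.07 for the myelin genes, -0.37 for the progenitor genes, 0.52 for transcription factors, 0.85 for other mature genes and -0.11 for other progenitor and committed genes.

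Neuron markers were lower in diencephalon as a sum and divided as single genes. They summed to 2955 to 3386 CPM in the diencephalic and 7119 to 8935 CPM in the cortical libraries, or 1.37-fold lower without Camk2a. Of the 15 genes 6 were higher and 4 lower (all genes: 14.9% and 14.8%). Of 12 microglial genes 11 were tested, 2 were lower and none was higher (all genes: 14.8% and 14.9%).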

How the data were processed

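Tagged-ribosome mRNA of 6 libraries was amplified as cDNA and read on an Ion Proton sequencer, per the labels' protocols. Quantification by RSEM on mm9 is recorded in the submitters' processing notes. Aligner, strand option and versions: not given in the sources used here. The deposited expected counts are per gene (3.64% to 3.99% of values are not whole) and were rounded for the tests. The authors also deposited TPM, which served here for levels and for an alternative, and FPKM, which had no further use.

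The count filter of edgeR 4.0.16 (filterByExpr, minimum count 10) kept 10568 of 23955 genes. With TMM factors in R 4.3.3, a robust quasi-likelihood model with region as its sole term was fitted, and p-values were adjusted by Benjamini-Hochberg with a threshold of 0.05. Standard errors come from the F statistic, and changes beyond 1.5-fold from glmTreat. The 18 alternatives were RLE factors, an unfiltered table, a stricter minimum of 30 counts, DESeq2 1.42.0, limma 3.58.1 (voom, or log2 TPM with a pseudocount of 1 or 0.1 and a mean of at least 1 TPM, or no such minimum), a replicate block, removal of a trend on gene length (spline with 5 degrees of freedom), removal of Rn45s, a term for the libraries low in Y-linked RNA, and leaving out each library. The model was tested on simulated counts.

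Members and lists were chosen with earlier results of these data known, and the division of members by role was made after their values were seen. Every member was named. Of the other lineage lists, the rule named the 5 tested genes of each with the smallest adjusted p, besides Olig1, Olig2, Sox10 and Myrf. A further gene of that rule is not reported here. Promoters are from RefSeq on GRCm38.p6, a later build than that of the counts, and were matched by symbol. The exact interval given for Ppp1r14a was taken on counts summed over the libraries of each region. It covers counting error only and leaves out the spread between libraries. Reads carry no molecular identifiers, so amplified copies cannot be told from separate molecules.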

Additional observations from a re-analysis of the deposited data

How the results depend on the processing

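Of 499 values of the 28 tested members under 18 alternatives, 470 kept their direction and their side of the threshold, 17 no longer passed, 1 newly passed and 11 changed sign, and 19 members kept their call throughout. The sign changes were confined to members that did not pass: Cryab (0.25 and 0.26 on log2(TPM + 1) and log2(TPM + 0.1), 0.25 with no TPM filter, 0.31 with the length trend removed, -0.21 to 0.19 on leaving out each library), Enpp2 (0.15, 0.16 and 0.15 on the TPM scales, -0.14 to 0.026 on leaving out each library) and Enpp6 (-0.12 to 0.22 on leaving out each library). Among other lineage genes Olig2 changed sign (0.060, 0.061 and 0.060 on the TPM scales, -0.31 to 0.047 on leaving out each library). The number of myelin genes higher in diencephalon ran from 13 at a minimum count of 30, where 17 were tested, to 17. Leaving out each library gave 14 to 17 myelin genes higher and 1 lower, 1 to 2 progenitor genes higher and 2 to 3 lower, and 1145 to 1681 of all genes higher and 1186 to 1692 lower. With no TPM filter 1 progenitor gene was lower. On the TPM scales 958, 908 and 920 of all genes were lower, and 68.9%, 68.7% and 68.3% of called genes were higher against 50.2%. The log2 fold of the summed progenitor genes moved from -0.08 to 0.40 with summed TPM and to -0.57 without Bcas1; the cause was not tested. Leaving out each library gave -0.16 to -0.03, and 0.57 to 0.77 for the myelin sum. Correlations of deviations between libraries of the same number were 0.060, -0.098 and -0.0065, which with 3 libraries per region cannot show whether the numbers pair them. Y-linked genes were at 8.44 CPM in diencephalon and 149 CPM in cortex for replicate 2, and at 166 and 0 CPM for replicate 3. Pools numbered 2 or 3 thus differed between regions in Y-linked RNA and are not read as pools of the same mice. With a replicate block 16 myelin genes were higher and 1 lower, and 2 progenitor genes were higher and 3 lower. In that fit 3037 of all genes were called against 3133. Depth limits Opalin, Ppp1r14a and Enpp6, with 3 to 37 counts per region.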
